A study of Mus musculus and Homo sapiens with 56 samples.

Results

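Zfp42, Dppa3, Nr0b1, Nr5a2, Tcl1, Dppa5a, Fbxo15 and Sall4 are genes used to mark undifferentiated, naive mouse embryonic stem cells, and none of them is among the 12 genes listed here as the naive transcription factor core. These 8 genes were taken by name from a count table of 52459 genes, of which 17778 had enough reads to be tested, all 8 included. Each was read in the RNA of E14TG2a embryonic stem cells that were wild type (WT) or carried D395A, which replaces an amino acid at the catalytic centre of METTL3, the main methyltransferase for N6-methyladenosine (m6A) in messenger RNA. Both groups were untreated per the labels and grew in N2B27 medium with LIF, the MEK inhibitor PD0325901 and the GSK3β inhibitor CHIR99021. The RNA-seq used ribosome-depleted total RNA in 2 libraries per genotype. The m6A peaks came from immunoprecipitation of fragmented chromatin RNA, so the RNA levels and the peaks describe different RNA fractions. The labels do not say how many D395A clones were used, or that the 2 libraries of a group came from separate cultures, so p-values measure only the spread between these libraries. The question was which of the markers fall, hold or rise in D395A cells, and where each carries m6A peaks.

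Naive stem cells resemble the epiblast of the blastocyst and are held in that state by LIF signalling through STAT3 and by blocking the MEK and GSK3β kinases, which sustains a core of transcription factors around Nanog, Esrrb, Klf4 and Tfcp2l1. The markers outside that core have varied roles. Zfp42 (REX1), Sall4, Nr5a2 and Nr0b1 (DAX1) act on DNA or on other transcription factors, Dppa3 (Stella) and Dppa5a are small proteins of early embryos and germ cells, Tcl1 is a co-activator of AKT kinases, and Fbxo15 is an F-box protein whose loss mouse stem cells tolerate. m6A on a transcript is read by YTH-domain proteins, and is best known for shortening the life of messenger RNAs.

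The upstream sequences of 2 markers are shown because results turn on these genes. Tcl1 had the largest fall, and the first WT m6A peak of Nr0b1 began before the annotated start of that gene. Each line gives the 250 bases before the RefSeq start in build GRCm38.p6, 5′ to 3′ on the strand of the gene, chr12:105222738-105222987 on the minus strand for Tcl1 and chrX:86191525-86191774 on the plus strand for Nr0b1. Capitals mark GC boxes in Tcl1 and, in Nr0b1, the 70 bases that lie inside the first WT m6A peak. The count table starts both genes further upstream than RefSeq does, so the last 56 bases printed for Tcl1 and the last 11 for Nr0b1 lie inside the gene as it was counted.
Tcl1: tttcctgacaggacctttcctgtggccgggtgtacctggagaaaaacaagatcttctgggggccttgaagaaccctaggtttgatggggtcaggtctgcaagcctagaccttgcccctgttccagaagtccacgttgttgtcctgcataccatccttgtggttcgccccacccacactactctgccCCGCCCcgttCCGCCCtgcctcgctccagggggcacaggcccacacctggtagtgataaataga
Nr0b1: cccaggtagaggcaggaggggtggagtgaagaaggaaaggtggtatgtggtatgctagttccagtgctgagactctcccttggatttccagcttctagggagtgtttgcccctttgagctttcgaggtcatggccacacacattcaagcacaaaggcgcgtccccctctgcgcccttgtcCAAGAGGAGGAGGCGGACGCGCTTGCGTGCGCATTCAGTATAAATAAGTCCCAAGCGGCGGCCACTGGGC

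RefSeq windows of 250 bases before to 50 after a start were at hand for 4 of the 8 markers, with 5 windows in all because Nr5a2 has a pair. Only the 250 bases before each start were searched, on both strands. A window is said to hold a sequence when those bases do. The letters TATAAA, held by 12.4% of all 32851 windows, began 32 bases before the Nr0b1 start and 181 bases before the first Nr5a2 start. The GC box GGGCGG, held by 32.7% of windows, lay 64 and 54 bases before the Tcl1 start, where it reads CCGCCC on the printed strand and where the nearer of the pair lies inside the counted Tcl1 gene, and 91 and 79 bases before the Zfp42 start. The octamer ATGCAAAT, held by 1.6% of windows, lay 186 bases before the Zfp42 start. The E box CACGTG (6.02% of windows), the site TCAAGGTCA named for Nr5a2 and Esrrb (0.387%) and its core AAGGTCA (4.08%), which overlaps the longer site, were in none of the 5 windows. These are letter matches only.

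The RNA libraries held 12743677 to 19246342 counts. Replicates differed by more than counting error in both groups (chi-square per degree of freedom 2.47 in WT and 5.74 in D395A), and no library was left out. Pou5f1 and Sox2, which define undifferentiated cells, were at 481.9 and 502.8 CPM (read counts scaled to library size) and at 292.5 and 264.1 CPM in WT replicates 1 and 2, and at 308 and 272 CPM and 279.5 and 242.6 CPM in the D395A replicates. The summed level of 10 fibroblast or feeder genes was 183.7 to 188.5 CPM in WT and 130.7 to 136.5 CPM in D395A, nearly all of it Vim, with Col1a1 at 4.02 to 4.11 CPM in WT and 1.45 to 1.65 CPM in D395A. In the edgeR quasi-likelihood test, with p-values adjusted over all 17778 genes, 6550 genes were higher and 6093 lower in D395A. The 488 genes overlapped on the opposite strand over 50% or more of their exons had a median log2 fold change of 3.65. The cause of that shift was not tested.

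Of the 8 markers, 1 (Dppa3) rose, 5 (Tcl1, Dppa5a, Zfp42, Nr5a2, Fbxo15) fell and 2 (Nr0b1, Sall4) did not pass the test at an adjusted p of 0.05. Over all tested genes 71.1% passed in either direction, 36.8% as higher and 34.3% as lower, so 6 passing of 8 is near the background and only the sizes and directions tell the markers apart. Tested against a fold of 2, which 15.4% of all genes passed as higher and 7.28% as lower, 1 marker (Dppa3) was higher and 3 (Tcl1, Dppa5a, Zfp42) were lower. The 8 markers had a median log2 fold change of -0.47, beside 0.003 for all tested genes. The summed RNA of the 8 was 1886 and 1879 CPM in the WT libraries and 1223 and 1226 CPM in the D395A libraries. The libraries of the genotypes did not overlap for 7 of the 8 markers, nor for 85.1% of all tested genes. In bulk RNA, fewer cells that express a gene and less RNA per cell cannot be told apart.

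**Figure D1:**
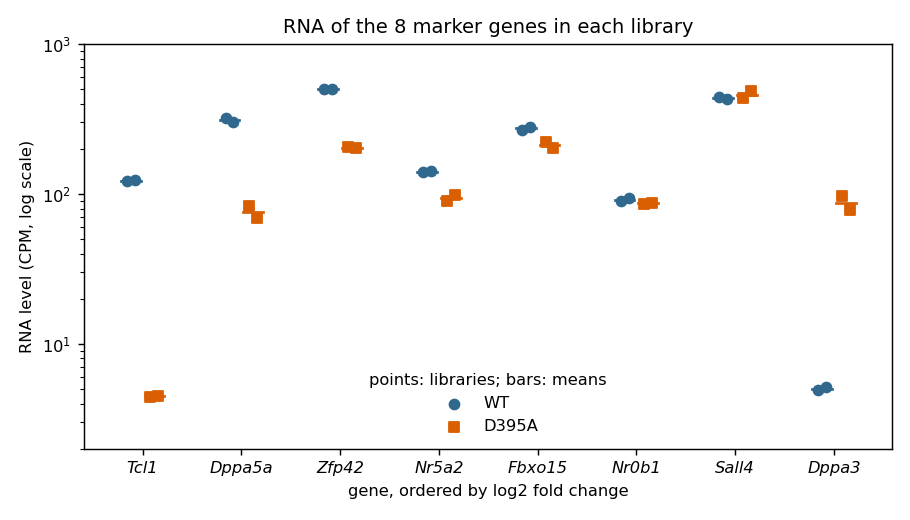
RNA level in CPM on a log axis for each marker in the 2 WT libraries (blue circles) and the 2 D395A libraries (orange squares), with bars at the means and genes ordered by log2 fold change. The genotypes overlap for Sall4 and not for the other 7 markers (85.1% of all tested genes do not overlap), and the lowest points are Tcl1 in D395A (4.41 and 4.52 CPM) and Dppa3 in WT (4.93 and 5.15 CPM).

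Among the 4 markers that act in transcription, Zfp42 fell the most. Zfp42, a zinc finger protein whose gene is the usual reporter of the naive state (chr8:43295063-43306980, mm10), was at 497.7 and 500.4 CPM in WT and 204.4 and 202.2 CPM in D395A. Both D395A libraries lay far below both WT libraries, a fall by 1.30 on the log2 scale (SE 0.07, 95% interval -1.44 to -1.16, adjusted p = 3.4e-10), or 2.45-fold. The other genes of chromosome 8 with at least 10 CPM, 564 in number, had a median log2 fold change of -0.42, and Zfp42 differed from that median by -0.88. For the chromosomes of the other markers such medians lay between -0.08 and 0.17. The part of the chromosome 8 shift in the fall of Zfp42 was not tested.

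Nr5a2, an orphan nuclear receptor that binds the Pou5f1 gene (chr1:136842571-136960448), fell to a lesser extent. It was at 139.5 and 142.8 CPM in WT and 90.3 and 99.0 CPM in D395A. The groups did not overlap, and the fall by 0.57 on the log2 scale (SE 0.06, 95% interval -0.71 to -0.44, adjusted p = 1.9e-06) was 1.49-fold, short of the fold of 2.

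Nr0b1 and Sall4 did not pass the test, and the intervals of both leave room for small changes only. Nr0b1, a nuclear receptor without a DNA-binding domain of the usual kind that binds NR5A2 and POU5F1 proteins (chrX:86191764-86195947), was at 89.1 and 93.6 CPM in WT and 86.3 and 86.9 CPM in D395A. The D395A libraries lay just below the WT libraries, with a log2 fold change of -0.08 (SE 0.06, 95% interval -0.21 to 0.06, adjusted p = 0.275). Sall4, a zinc finger partner of Pou5f1 and of the NuRD complex (chr2:168748332-168767943), was at 441 and 431 CPM in WT and 437 and 484 CPM in D395A. Here the groups overlapped, and the log2 fold change was 0.08 (SE 0.07, 95% interval -0.08 to 0.23, adjusted p = 0.343). Without D395A replicate 1 the Sall4 value was 0.18 and passed the test (adjusted p = 0.000356), so the call for Sall4 rested on that library. Of the Sall4 exonic length, 9.5% is shared with Gm14261 on the opposite strand, no source used here says whether counting used strand, and Gm14261 itself had 7 and 12 counts in WT and 19 and 25 in D395A.

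The markers of early embryos and germ cells moved in opposite directions. Dppa3, a maternal factor that guards DNA methylation in the zygote and binds UHRF1 (chr6:122626410-122630272), was at 4.93 and 5.15 CPM in WT, from 66 and 96 reads, and at 96.2 and 78.1 CPM in D395A, from 1265 and 1469 reads. Both D395A libraries lay far above both WT libraries, and differed from each other by more than the WT pair did. The rise was 4.10 on the log2 scale (SE 0.12, 95% interval 3.84 to 4.36, adjusted p = 1.7e-12), or 17.1-fold, and was the 862nd largest among the 17778 tested genes. The pseudogene Dppa3-ps had 0 and 0 counts in WT and 1 and 1 in D395A.

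Dppa5a, an RNA-binding protein with a KH domain (chr9:78367052-78368177), was at 322 and 304 CPM in WT and 83.3 and 68.8 CPM in D395A. Both D395A libraries were far below WT, and they differed from each other by more than the WT pair did. The fall was by 2.05 on the log2 scale (SE 0.08, 95% interval -2.22 to -1.87, adjusted p = 3.3e-11), or 4.13-fold. The Dppa5 pseudogenes Dppa5b and Dppa5c and the copy Zfp42-ps1 were not analysed here, so reads that fit a copy as well as Dppa5a or Zfp42 are an uncertainty of those values.

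Tcl1 (chr12:105216750-105222793), which promotes AKT signalling and self-renewal, had the largest fall of the 8. It was at 122.0 and 123.8 CPM in WT, from 1633 and 2308 reads, and at 4.41 and 4.52 CPM in D395A, from 58 and 85 reads. The libraries of each genotype lay close together. The fall was by 4.78 on the log2 scale (SE 0.09, 95% interval -4.97 to -4.58, adjusted p = 3.3e-14), or 27.4-fold, the 77th largest fall of all tested genes. Its paralog Tcl1b2 had 10 and 8 counts in WT and 0 in both D395A libraries, and Tcl1b1, Tcl1b3, Tcl1b4 and Tcl1b5 had at most 1 count in any library.

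Fbxo15, the substrate-binding part of a ubiquitin ligase (chr18:84934782-84981472), had the smallest of the 5 falls. It was at 269 and 278 CPM in WT and 222 and 203 CPM in D395A. The groups did not overlap, and the fall by 0.37 on the log2 scale (SE 0.07, 95% interval -0.51 to -0.23, adjusted p = 0.000176) was 1.29-fold, short of the fold of 2.

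**Figure D2:**
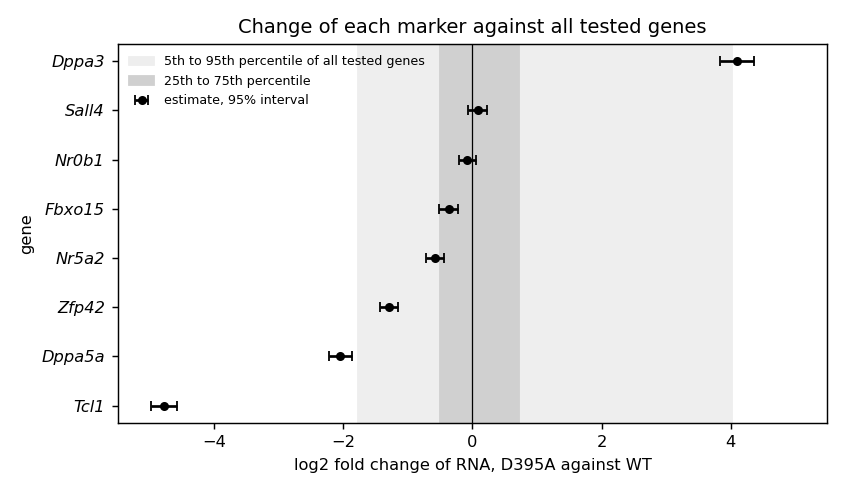
Log2 fold change of RNA, D395A against WT, for each marker with its 95% interval, over bands that hold the central part of all tested genes (5th to 95th percentile -1.78 to 4.02, 25th to 75th -0.50 to 0.73). Tcl1 and Dppa5a lie below the wide band and Dppa3 just above it, while the intervals of Sall4 and Nr0b1 include 0.

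Per kilobase of exon, the markers spanned a wide range of RNA levels in WT. Dppa5a led with 505.7 ± 21.3 CPM per kb (SD, n = 2), at percentile 99.8 of tested genes, followed by Zfp42 with 265.3 ± 1.02. Fbxo15 (81.4 ± 1.97), Sall4 (78.8 ± 1.30), Tcl1 (66.6 ± 0.70), Nr0b1 (50.5 ± 1.76) and Nr5a2 (23.9 ± 0.39) followed in that order. Dppa3 was last with 5.65 ± 0.17 CPM per kb, at percentile 53.6. No neighbours in this WT order overlapped between libraries, although Fbxo15 and Sall4 were apart by little.

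In D395A other genes took the third, the fifth and the last place, and the remaining places kept their genes. Dppa5a still led with 122.9 ± 16.6 CPM per kb (SD, n = 2), then Zfp42 with 108.1 ± 0.83 and Dppa3 with 97.7 ± 14.4, and the libraries of Zfp42 and Dppa3 overlapped. Sall4 (83.2 ± 5.98), Fbxo15 (63.1 ± 3.99), Nr0b1 (47.9 ± 0.23) and Nr5a2 (16.0 ± 1.04) kept the middle, with Sall4 now above Fbxo15. Tcl1 came last with 2.42 ± 0.04 CPM per kb, at percentile 37.2 of tested genes. Dppa3 had moved from the last place to the third and to percentile 97.9.

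Genes related to the markers were read from lists chosen with earlier results of these data in view, and their counts are descriptions. Of 21 family relatives, 12 were tested, with 4 higher, 6 lower and 2 not passing, and a median log2 fold change of -0.16. Sall2, a relative of Sall4, rose 8.40-fold, from 7.55 and 6.65 CPM to 57.1 and 61.1 CPM. Ooep, a KH-domain relative of Dppa5a known from oocytes, fell 7.77-fold from 100.04 and 101.6 CPM to 12.7 and 13.2 CPM. Nr6a1, a nuclear receptor that represses Pou5f1 during differentiation, rose 1.92-fold, and Esrrb, a nuclear receptor of the naive core, fell 1.79-fold.

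The 18 partners of the marker proteins were all tested, with 7 higher, 6 lower and 5 not passing, and a median log2 fold change of 0.03. Akt1, a kinase that the TCL1 protein binds, rose 2.14-fold, from 49.2 and 49.4 CPM to 110.8 and 100.5 CPM. Mbd3, a NuRD subunit, rose 1.77-fold, while Nanog, which SALL4 binds, fell 1.69-fold.

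Side by side with the 8 markers, the 12 genes of the naive core had 2 higher, 9 lower and 1 not passing, with a median log2 fold change of -0.76. A difference between the lists was not tested. In the core, Tbx3 fell 20.7-fold, Klf5 3.97-fold, Tfcp2l1 2.96-fold and Klf4 2.57-fold. The 20 other undifferentiated state markers had 3 higher, 14 lower and 3 not passing, with a median of -0.53. Of these, the cell adhesion gene Jam2 fell 13.4-fold, the Nodal co-receptor gene Tdgf1 8.13-fold, L1td1 5.65-fold and the growth factor gene Fgf4 4.44-fold.

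Lists of other states moved in both directions. Of the formative and primed epiblast genes, 16 of 17 were tested, with 8 higher and 6 lower and a median of 0.43. Among them Dnmt3a rose 3.79-fold and Sall2 rose as given above, while the Nodal target Lefty2 fell 17.9-fold and Etv4, a target of FGF signalling, fell 10.01-fold. Otx2 fell 12.8-fold, from 11.7 and 12.1 CPM to 1.90 and 0.21 CPM, while Sox3 rose 18.3-fold and Cdh2 7.80-fold. Fgf5, at 0 to 0.23 CPM, was not tested. The 12 primordial germ cell genes, the lineage in which Dppa3 is best known, had 6 higher and 6 lower. Prdm1, which starts that lineage, fell 5.92-fold, Kit 3.64-fold and Dazl 2.63-fold. Rhox6 rose 16.1-fold from 0.52 and 0.38 CPM to 8.06 and 6.43 CPM. The other rises were in Rhox9 (6.63-fold), Ddx4 (2.34-fold), Dnd1 (1.73-fold), Ifitm3 (1.60-fold) and Tfap2c (1.32-fold). The other falls were in Rhox5 (2.66-fold), Nanos3 (1.89-fold) and Stk31 (1.32-fold). Of the 2-cell-like genes, a state in which Zscan4 is transcribed, 7 of 12 were tested, and 5 were higher and 0 lower. All 5 were Zscan4 copies. Zscan4a and Usp17lc did not pass, and Usp17lc went from 2.84 and 1.82 CPM to 1.29 and 1.49 CPM. The untested genes Zfp352, Duxf3, Tcstv1, Tcstv3 and Tdpoz4 lay below 1 CPM in every library. Zscan4d rose 3.63-fold, Zscan4e 2.17-fold, Zscan4f 1.88-fold and Zscan4c 1.75-fold, and since these are near-identical copies their values are uncertain one by one.

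Markers of other cell types were read beside these. Of the primitive endoderm genes 11 of 12 were tested (5 higher, 3 lower, median 0.42). Dab2 rose 4.86-fold and Col4a2 3.88-fold, Lama1 fell 8.88-fold and Sparc 2.05-fold, and the defining transcription factor genes differed among themselves. Gata6 and Sox17 did not pass and lay between 1.07 and 1.90 CPM in all 4 libraries, while Gata4 fell 4.78-fold, from 8.14 and 7.99 CPM to 1.45 and 1.86 CPM. Foxq1, whose exons overlap a gene on the opposite strand over 66.1% of their length, rose 9.86-fold. The summed level of that list was 617.8 to 619 CPM in WT, of which Lama1 and Sparc made up 87.8% to 87.9%, and 259.7 to 272.7 CPM in D395A. Of the trophectoderm genes 8 of 10 were tested (4 higher, 3 lower, median 0.44, summed level 158.1 to 166.7 CPM in WT and 88.6 to 92.0 CPM in D395A). Fgfr2 rose 22.2-fold, Eomes fell 6.73-fold, Tead4 5.28-fold and Tfap2a 2.60-fold. Of the fibroblast or feeder genes 7 of 10 were tested (2 higher, 3 lower, median -0.53), among them Vim, which fell 1.45-fold, Col1a1, which fell 2.60-fold, and Twist1, which rose 2.89-fold. Dcn was at 0 in both WT libraries and at 2.13 and 1.65 CPM in D395A. The part of these lists in the marker values was not tested.

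The nearest genes of each marker on its chromosome, among those with at least 1 CPM, were compared to see whether a change extended beyond the marker. Beside Tcl1, Dppa5a and Zfp42, a neighbour fell with the marker. Tunar, a long non-coding RNA of stem and neural cells 111.1 kb from Tcl1, went from 5.30 and 4.88 CPM to 0.53 and 0.58 CPM (log2 fold change -3.16), while Glrx5 on the other side, at 173.8 kb, rose (log2 fold change 0.78). Ooep, 7.9 kb from Dppa5a, fell by 2.96 on the log2 scale, and Gsta4 on the other side had a value of -0.13 and did not pass. Triml2, 101.2 kb from Zfp42, went from 231.1 and 223.7 CPM to 89.5 and 91.2 CPM, a log2 fold change of -1.33 beside -1.30 for Zfp42, and Fat1 at 1628.5 kb had a value of 0.06. The median of chromosome 8, which holds these genes, was -0.42 as given above. Within 500 kb, 3 tested genes of at least 1 CPM lay near Zfp42 (1 higher, 2 lower, log2 fold changes -1.39 to 4.35). Near Tcl1 lay 12 such genes (3 higher, 7 lower, 2 not passing, -3.73 to 0.78). Near Dppa5a lay 15 (3 higher, 5 lower, 7 not passing, -2.96 to 0.40). Over all tested genes, with no floor of 1 CPM, 34.3% were lower.

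Dppa3 stood alone among its nearest genes. Gdf3, a ligand of the TGF-β family that is itself a marker of undifferentiated cells, lies 16.3 kb away and was at 153.5 and 142.4 CPM in WT and 148.1 and 157.4 CPM in D395A (log2 fold change 0.05, SE 0.06, edgeR adjusted p = 0.515). Gm10420 on the other side, at 65.7 kb, had a value of 0.05 as well. Within 500 kb of Dppa3, 12 tested genes of at least 1 CPM lay between -0.92 and 1.68 on the log2 scale, so none of these came near the value of 4.10.

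Some neighbours of the markers with smaller changes did move. Atp9a, 5.9 kb from Sall4, fell by 1.36 on the log2 scale, from 67.1 and 70.6 CPM to 26.0 and 27.6 CPM, and Zfp64 on the other side rose (0.31). Timm21, a mitochondrial import gene that lies inside the first intron of Fbxo15 on the opposite strand, rose by 1.49 on the log2 scale from 4.63 and 4.51 CPM to 12.6 and 13.1 CPM, and Socs6, 3683.8 kb away, rose (1.37). Gk beside Nr0b1 had a value of -0.17 (adjusted p = 0.053), and Pola1, the catalytic subunit of a DNA polymerase, fell (-0.88) at the far distance of 7108.8 kb. Beside Nr5a2, neither Gm29718 (0.40) nor Nek7 (0.15) passed.

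**Figure D3:**
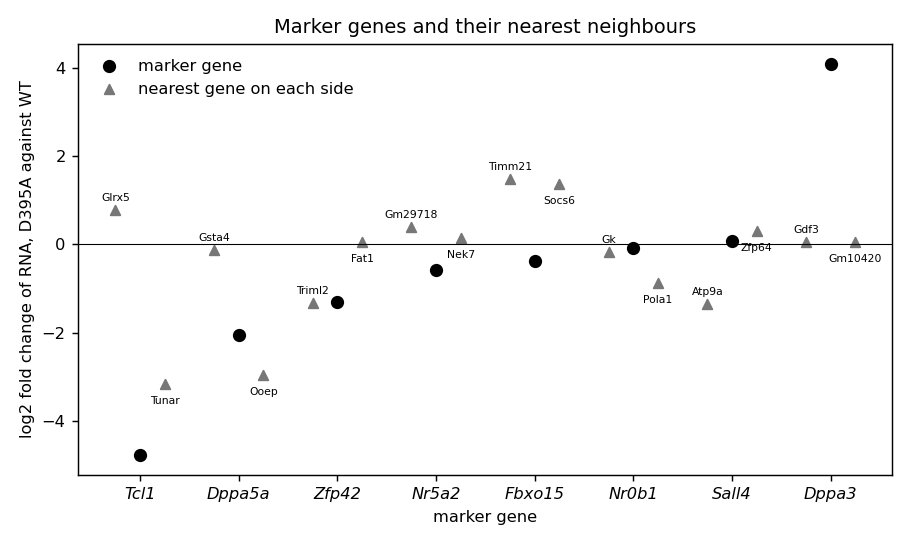
Log2 fold change of RNA, D395A against WT, for each marker (black circles) and its nearest tested gene of at least 1 CPM on the side of lower coordinates (left triangle) and of higher coordinates (right triangle). Tcl1, Dppa5a and Zfp42 and also Sall4, whose own value is 0.08, each have 1 neighbour below -1, while both neighbours of Dppa3 lie at 0.05.

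The gene whose 4 libraries lay nearest to each marker was found by the Euclidean distance of log2 CPM (prior count 1) over all tested genes. A near match was found for 5 markers at a distance of 0.07 to 0.09, namely Ash2l for Zfp42, Suclg1 for Nr0b1, Cdc25a for Nr5a2, Morf4l2 for Fbxo15 and Hk2 for Sall4. The 3 markers with the largest changes, which exclude Zfp42, had none so close. Nos1 was nearest to Tcl1 (distance 0.45, 149.2 and 135.8 CPM in WT and 5.17 and 5.26 CPM in D395A), Grik3 to Dppa5a (0.39) and Cadps2 to Dppa3 (0.56, 3.96 and 3.97 CPM in WT and 79.9 and 83.7 CPM in D395A).

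The m6A peaks differed among the markers in number, height and place. The WT list, from 2 immunoprecipitated and 2 input libraries, held 48445 peaks, and the D395A list, from 1 of each, held 38823. The smallest -log10 q was 1.31 in the WT list and 0 in the D395A list, which instead ended at a -log10 p of 1.30, so the lists were called at different thresholds and their counts cannot be compared as levels of m6A. The sequencing depth behind the lists is unknown, the peaks carry no strand, and with 1 list per genotype no difference was tested. Fold enrichment of immunoprecipitate over control and -log10 q are the authors' own values. A WT peak lay in 5 of the 8 markers, where 66.5% of all tested genes had one, and a D395A peak lay in 5, where 52.6% of tested genes had one. Both shares are near the background. Zfp42, Nr5a2, Tcl1 and Sall4 had peaks in both lists, Nr0b1 only in the WT list, Fbxo15 only in the D395A list, and Dppa3 and Dppa5a, the shortest genes of the 8, in neither.

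The 8 markers held 14 WT peaks, with a median fold enrichment of 3.90 (2.04 to 9.40) where the median over tested gene bodies was 5.96. The summit lay in an exon in 11 of the 14, beside 56.1% of all WT peaks in tested genes. The 24 D395A peaks had a median of 2.61 (1.95 to 3.96), beside 2.62 in tested gene bodies, and the summit lay in an exon in 5, beside 20.9%. A D395A peak overlapped 2 of the 14 WT peaks, both in Sall4, beside 11.9% of WT peaks in tested genes. A -log10 q of 2 or more was reached by 7 of the 24 D395A peaks (3 in Zfp42, 1 in Nr5a2, 3 in Fbxo15), and by 8.90% of the D395A list.

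Sall4 carried the highest WT peak of the 8, although its RNA did not pass the test. That peak, chr2:168754161-168757032, had a fold enrichment of 9.40 and a -log10 q of 141, with 2367 of its 2872 bases in the fifth of 7 exon blocks. The WT peaks in the last exon (6.89), in the sixth block (6.77) and in the second (3.72) were lower, and WT peaks covered 77.8% of the Sall4 exonic length. The 4 D395A peaks of Sall4 had fold enrichments of 1.95 to 2.58 and -log10 q values of 0 to 0.21, and none lay on the highest WT peak. The lowest WT peak and 1 D395A peak lie where Gm14261 overlaps on the opposite strand.

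Nr5a2 had the next highest WT peak of the 8. It had 4 WT peaks, led by chr1:136844274-136845990 in its last exon (fold enrichment 7.78) and chr1:136940389-136941285 in its seventh exon block (6.24). Its 8 D395A peaks all had their summit in introns, with fold enrichments of 2.08 to 3.96, in a gene body of 117.9 kb. The highest of the 8 had a -log10 q of 2.20, and the others had values of 0 to 0.33. Nr0b1, the other nuclear receptor gene, had 3 WT peaks, of 2.06, 2.49 and 4.02, which together covered 70.7% of its exonic length. The first of them, chrX:86191705-86192555, takes in the capital letters of the Nr0b1 sequence printed above, and the highest had its summit near the start of the last exon.

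Tcl1 had 1 WT peak, chr12:105217176-105217496, wholly inside its last exon, with a fold enrichment of 4.59 and a -log10 q of 23.3. The 1 D395A peak of Tcl1 lay in an intron (2.93, -log10 q 0.30). Tcl1 RNA was at 4.41 and 4.52 CPM in D395A total RNA. Of the tested genes at 1 to 10 CPM in D395A, 31.4% had a D395A peak, against 67.1% at 10 to 100 CPM and 84.3% at 100 to 1000 CPM, so in the D395A list the share with a peak was higher in each higher class of RNA level. The part of RNA level in the peaks of Tcl1 was not tested.

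Zfp42 had 2 WT peaks and neither summit lay in an exon. The higher, chr8:43294021-43295097 (fold enrichment 3.79, -log10 q 62.3), had its summit beyond the annotated gene end and shared 35 of its 1077 bases with the last exon, and the other, of 2.04, lay in an intron. The 4 D395A peaks of Zfp42 (2.62 to 3.29) lay elsewhere, 1 of them with its summit in the last exon. Fbxo15 had 0 WT peaks and 7 D395A peaks of 2.24 to 3.44, 1 with its summit in an exon, and 2 of the 7 overlap the gene body of Timm21. The -log10 q values of these 7 peaks were 0.17 to 2.96, and the gene body of Fbxo15 spans 46.7 kb. Dppa3, at 4.93 and 5.15 CPM in WT, was among genes of 1 to 10 CPM, of which 59.1% had a WT peak, and Dppa5a was among genes of 100 to 1000 CPM, of which 73.4% had one, with 78.3% between these classes, at 10 to 100 CPM.

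**Figure D4:**
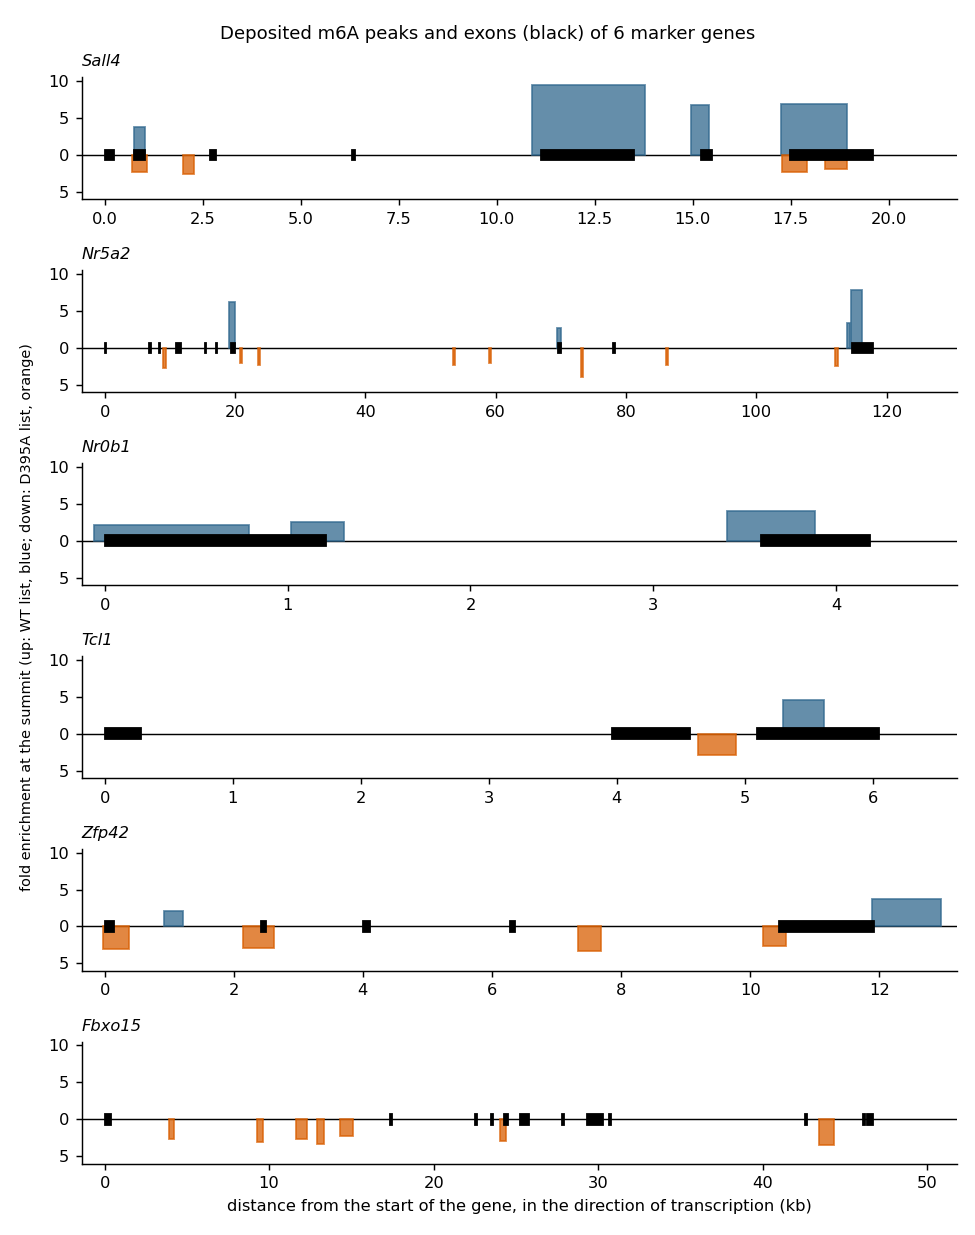
Deposited m6A peaks along 6 markers by distance from the gene start in kb, in the direction of transcription, with exons in black. Bars upward are WT peaks and bars downward D395A peaks, with height the fold enrichment at the summit, and the highest bar is the 9.40 peak of Sall4.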

How the data were processed

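Counts were analysed for 2 WT and 2 D395A RNA-seq libraries, and peaks for the WT and D395A m6A lists of mouse cells. HEK293T lists and chromatin immunoprecipitation samples were not analysed here. Members and lists were chosen with earlier results of these data known.

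Per the submitters' processing notes, the authors' tools were HISAT2 2.1.0, Bowtie2 2.3.4.1, featureCounts 1.6.3, edgeR 3.22.5, MACS2 2.1.1, SAMtools 1.7, Picard 2.16.0, Trimmomatic 0.33.0 and FastQC, with mm10 for mouse. The notes as given here do not tie a tool to a step. The RNA table holds raw counts per gene, as deposited, with exons and exonic length. Its column Da95A_1 differs in 1 character from the labels and was taken as D395A replicate 1. The peak lists are deposited in narrowPeak layout, with fold enrichment as a ratio and significance as -log10 p and -log10 q. No source used here says how the WT libraries were combined, and 2 further unlabelled columns of that list were not used.

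Genes were kept with filterByExpr and tested with edgeR 4.0.16 (TMM scaling, quasi-likelihood test, Benjamini-Hochberg over all tested genes) in R 4.3.3. TMM factors were 0.961 and 0.970 in WT and 1.034 and 1.038 in D395A, and the biological coefficient of variation was 5.47%. CPM use the scaled library sizes. The test against a fold of 2 (glmTreat) was added after the data were seen. A peak belongs to a gene when 1 base or more lies in the gene body (bedtools 2.31.1). Promoter windows are from RefSeq, GRCm38.p6.

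The named genes are the 8 markers, up to 4 called genes per other list with the smallest adjusted p, the nearest tested gene of at least 1 CPM on each side, and the nearest gene in log2 CPM. Pou5f1, Sox2, Gata4, Gata6, Sox17, Foxq1, the marker copies and Gm14261 were named besides, and 1 gene that the rule names is not reported here. On simulated counts of 17418 genes for the D395A against WT comparison, 76%, 86%, 100% and 100% of 50 genes changed 1.5-, 2-, 4- and 8-fold were recovered, and 0.549% of calls were unchanged genes. The simulation gave every gene the same dispersion of 0.003 and changed 200 genes, whereas 71.1% of tested genes passed in the data. The 0.549% is therefore not an error rate of the calls above. Alternatives were other scalings and filters, DESeq2 1.42.0, limma-voom (limma 3.58.1), a replicate block, each library left out, and other peak thresholds and assignments.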

Additional observations from a re-analysis of the deposited data

How the results depend on the processing

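Of 103 pairs of a marker and 1 of the 13 alternative settings, 102 kept their direction and their side of the threshold. The exception was Sall4, at 0.0032 to 0.18 with each library left out and above the threshold only without D395A replicate 1, which took the markers called higher from 1 to 2 (leave-one-out range 1 to 2). A group cut to 1 library then takes its spread from the other genotype. The other ranges over alternatives were -4.80 to -4.73 for Tcl1, -2.15 to -1.91 for Dppa5a, -1.31 to -1.24 for Zfp42, -0.64 to -0.48 for Nr5a2, -0.40 to -0.30 for Fbxo15, -0.12 to -0.03 for Nr0b1 and 3.98 to 4.25 for Dppa3. The replicate block gave 6656 genes higher and 6239 lower and changed no marker's call, and deviations of same-numbered libraries correlated at 0.036, over only 2 pairs. Without genes overlapped on the opposite strand, 4277 genes were higher and 4248 lower, from fewer genes tested, and Sall4 was not fitted. Of the 488 genes overlapped over 50% or more of their exons, 75.2% had been higher and 9.84% lower. Their median log2 fold change was 3.65, beside 0.09 for the 4204 genes overlapped up to 25% and -0.07 for the 12377 without overlap. Of the genes without overlap, 32.3% had been higher and 37.1% lower. Among the markers only Sall4 is overlapped on the opposite strand. The cause of this shift, and its part in other RNA values, were not tested. Against a fold of 2 there were 2733 higher and 1294 lower, and 3 markers lower, without Nr5a2 (-0.57) and Fbxo15 (-0.37).

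With the same number of top-ranked peaks (10000 per list), 3 markers had a WT peak and 3 a D395A peak (6136 and 4780 tested genes). At a -log10 q of 2 or more, 3 markers and 2219 tested genes had a D395A peak, and with the summit in an exon, 3 and 4850. The cause of these shifts beyond the smaller lists was not tested. Peak strength is known only as the authors' values, with no depth.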
